A study of Mus musculus with 2 samples.

Results

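The genes described here encode the nuclear pore and the soluble machinery that carries cargo through it. They were chosen by symbol alone: nucleoporins, importins and exportins numbered under Nup, Ipo or Xpo, every gene starting with Kpna, Kpnb or Tnpo, and Ran, Rangap1, Ranbp1, Rcc1 and Tpr. The array holds 45 of them among 22010 named genes, as 96 probes, of which 90 were measured. All 45 genes had both channels well above background on both arrays, so none was lost to the filter on dim probes. The series compared mouse G1E-ER-GATA-1 cells that received LMO2 siRNA with the same line given control siRNA. The line is GATA-1-null erythroid and carries a GATA-1 protein fused to an oestrogen receptor domain, and cells of both arms spent 24 h in b-estradiol after transfection to start maturation. It is a single established line, so nothing here speaks to variation between animals. Each of 2 two-colour arrays received total RNA from both arms, control RNA in Cy5 and LMO2 siRNA RNA in Cy3 by the channel labels. The labelling protocol names both dyes in a single text, so the direction rests on those channel labels, and Lmo2 itself ran the way they give. Dye and siRNA therefore cannot be told apart in any value below.

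The nuclear pore is a ring-shaped channel through the nuclear envelope, built from a scaffold of Y-shaped complexes and an inner ring and lined with disordered nucleoporins. Importins bind cargo in the cytoplasm and release it in the nucleus when they meet Ran bound to GTP, and exportins bind cargo and Ran-GTP together and release both outside. Maturing erythroid cells shrink and condense their nucleus before it is expelled, and exchange between nucleus and cytoplasm is part of that process.

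Lmo2, the targeted gene, fell by 1.92 ± 0.14 on the log2 scale (SD, n = 2), a 3.77-fold lower ratio in LMO2 siRNA cells (adjusted p = 2.9e-21, limma). Replicate 1 gave -1.82 and replicate 2 gave -2.02. Between 55.8% and 68.2% of the 43379 gene spots were well above background in each channel. Replicate numbers come from the labels, which name no separate cultures, so p-values measure only spread between these arrays, which may be technical. In mean signals that spread is mostly pooled over all genes (28.1 prior degrees of freedom and 1 residual) and is little of a gene's own. The labels call the cells both erythroid and embryonic stem cells. Of 9 erythroid markers on the array 8 passed the filter, all but Hbb-b1, and read from 85.3 intensity units (Epb42) up to saturation (Hba-a1 and Hbb-bt) in the control channel. Of 6 embryonic stem cell markers 3 passed, Dppa5a, Esrrb and Pou5f1, which read 61.6 to 149 units, while Nanog, Sox2 and Zfp42 did not. In mean signals 3 of 5 measured mast cell markers were called higher and 0 lower, with a median log2 ratio of 0.26, and 2 of 7 megakaryocyte markers were called higher and 1 lower (Gp9, -0.31), with a median of 0.10, beside 24.5% higher and 27.4% lower of all genes. Ms4a2, Mcpt8 and Ppbp, also on these lists, did not pass the filter. The part of such cells in the values below was not tested.

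The changes in the pore and transport genes were small. Each ratio below is the log2 of LMO2 siRNA over control siRNA, given as the mean ± SD of both arrays (n = 2) and tested against 0 with limma over all 14316 measured genes at an adjusted p of 0.05. Intensities are the scanner's mean signals before normalization, in which Cy5 read brighter than Cy3 on both arrays for 44 of the 45 genes, so arms are compared only through the normalized ratio. No gene of the 45 reached a 2-fold difference on both arrays, and 36 kept the same sign on both. The median SD was 0.05 for the 45 genes and 0.05 for all genes.

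In these mean signals, 12 of the 45 genes were called higher (26.7%) and 13 lower (28.9%), with 20 called neither way. Among all measured genes 24.5% were called higher and 27.4% lower, so the shares of the 45 genes were near those of the array. Their median log2 ratio was 0.00, against -0.02 for all genes. The split depended on the scaling: with each array centred on its median in place of the intensity-dependent loess curve, 0 of the 45 were called higher by limma (also 0 at an unadjusted p under 0.05) and 41 lower, beside 2.97% higher and 64.5% lower of all genes. That centring moved the median of all measured genes to -0.40 and that of the 45 genes to -0.62.

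Calls in the mean signals followed where a probe sits on the glass. Across the 45 genes the log2 ratio correlated with the array row of the probe at r = 0.64 (Spearman's rho = 0.61), a description over genes that share both arrays. The 12 genes called higher lay in rows 294 to 515 and the 13 called lower in rows 44 to 341, with medians of 396 and 181. Ipo8 and Nup50 each have a probe printed in 10 spots over the array, which shows the drift with sequence held fixed. The Ipo8 probe ranged from -0.34 to 0.35 on replicate 1 and from -0.54 to 0.30 on replicate 2, although every spot carries the same sequence.

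Dividing the background-corrected signals by the position ratio that the scanner software records for each spot removed most of that drift. The SD over the 10 Ipo8 spots went from 0.25 to 0.05 on replicate 1 and from 0.29 to 0.04 on replicate 2. For the Nup50 probe it went from 0.21 to 0.04 and from 0.22 to 0.05. The correlation with array row over the 45 genes was then 0.11 (rho = 0.06). The position ratio was recorded from these same arrays, so these falls describe the correction and do not test it independently. Both sets of values are therefore given below, and the scanner's own processed signals give another set.

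**Figure D1:**
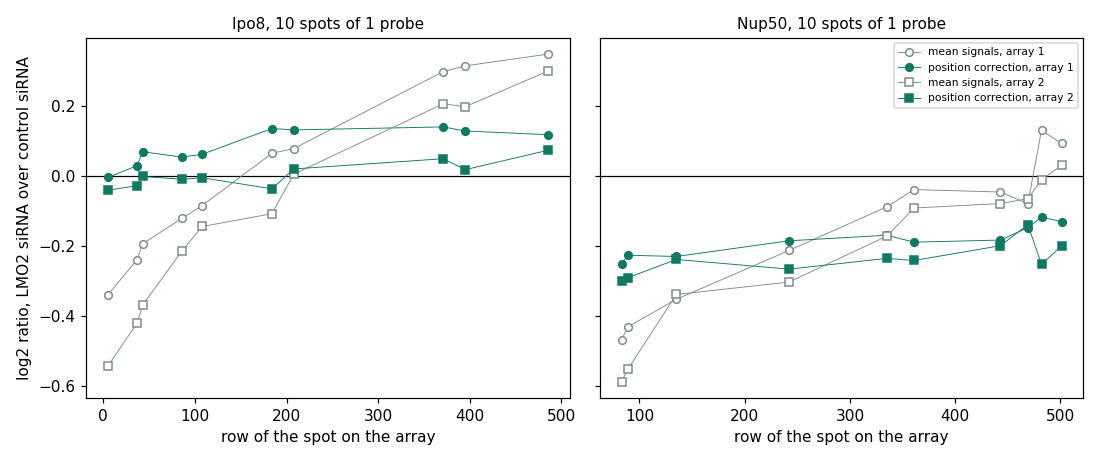
Log2 ratio (LMO2 siRNA over control siRNA) of each of the 10 spots of 1 Ipo8 probe (left) and 1 Nup50 probe (right) against the row of the spot on the array, with circles for replicate 1, squares for replicate 2, open grey for mean signals and filled green after position correction. The grey points climb with row, from -0.34 to 0.35 for Ipo8 on replicate 1, and the green points lie between -0.0041 and 0.14 there. A smaller rise with row remained after correction. On replicate 1, Ipo8 went from -0.0041 at row 5 to 0.12 at row 485, and Nup50 from -0.25 at row 83 to -0.13 at row 501.

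With position correction, 5 of the 45 genes were called higher (11.1%) and 12 lower (26.7%), beside 20.3% and 17.9% of all genes. The median of the 45 genes was -0.08 and that of all genes -0.01, and the median absolute log2 ratio was 0.11 in each. On both arrays 21 genes were below 0 and 13 above 0. Calls in the same direction with and without the correction numbered 7 lower (Nup160, Xpo1, Nup35, Kpna3, Ipo7, Nup50 and Ipo9) and 5 higher (Xpo7, Kpna1, Ipo5, Nup214 and Ran, whose call cannot be read because its control channel is saturated). Among all genes this looser pairing, chosen after the values were seen, called 13.5% lower and 16% higher. In processed signals 1 gene was called lower and 0 higher by limma (11 and 3 at an unadjusted p under 0.05), beside 3.41% and 6.8% of all genes. Only Nup160 was called in the same direction in all 3 sets of values, as 2.56% of all genes were lower and 5.42% higher, and only of genes that met this are "rose" and "fell" used.

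**Figure D2:**
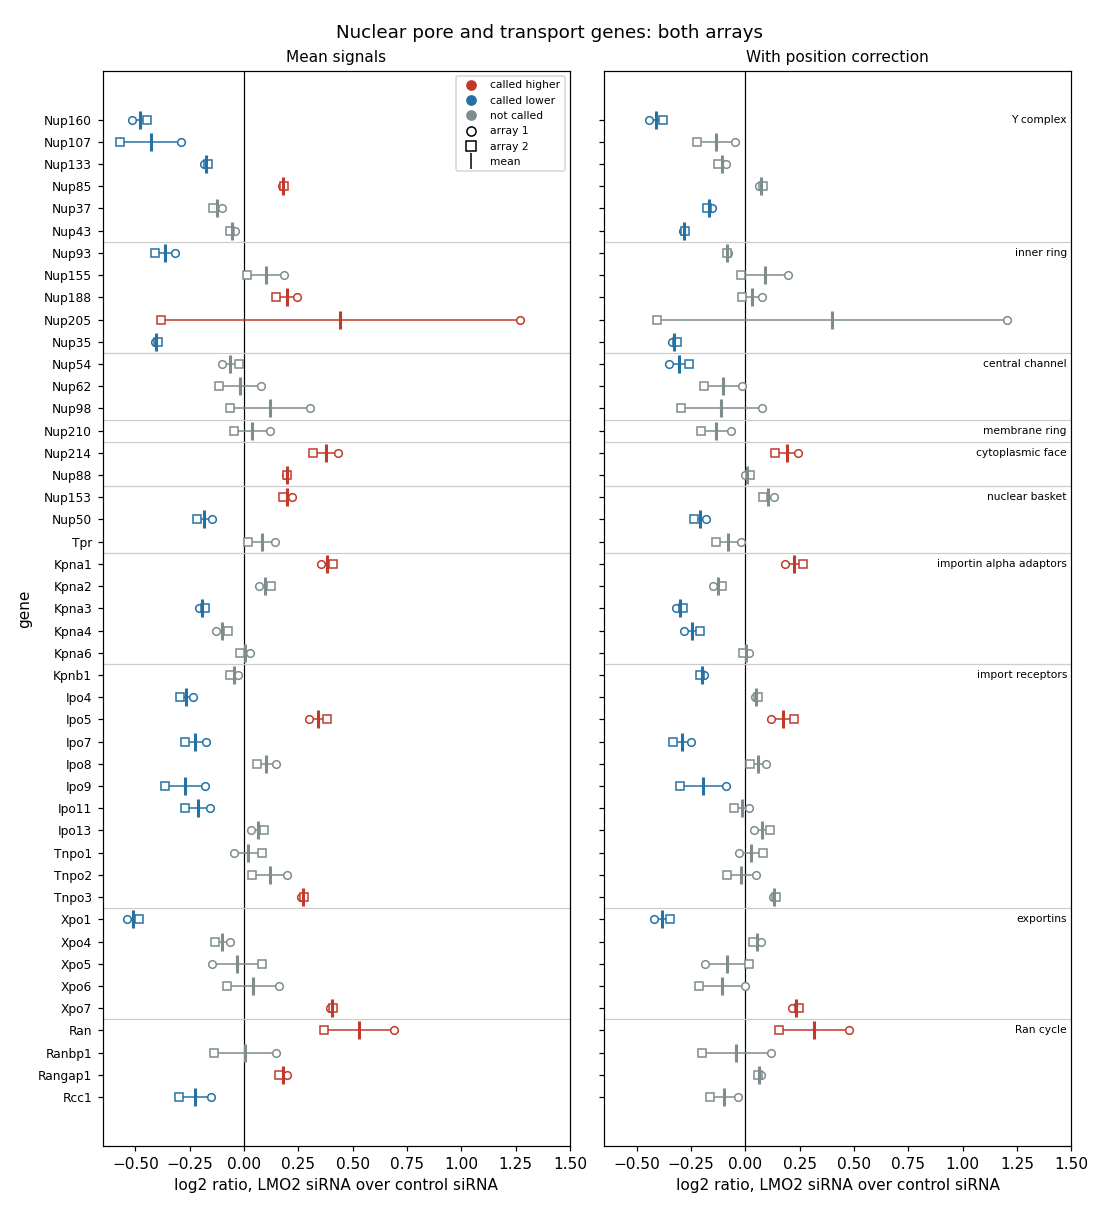
Log2 ratio (LMO2 siRNA over control siRNA, horizontal axis) of the 45 genes in rows ordered by role, from mean signals (left) and with position correction (right), with circles for replicate 1, squares for replicate 2, a tick for their mean, red for genes called higher, blue for lower and grey for neither. Red genes number 12 on the left and 5 on the right (below 0 under median centring except Nup205, with Ran saturated and given no ratio), blue genes number 13 and 12, and Nup205 is the gene whose arrays lie far apart, at 1.27 and -0.38.

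The Y complex, the outer scaffold of the pore, holds Nup160, the only gene of the 45 called in all 3 sets. That is 2.22% of the 45 called lower, near the 2.56% of all genes. Xpo1, given further below, read lower in mean signals (-0.51) and missed the call in processed signals only. Nup160, one of its large subunits, read -0.52 on replicate 1 and -0.44 on replicate 2. Intensities were 1062 and 994 units with LMO2 siRNA and 2780 and 2435 with control siRNA. Both arrays were low by similar amounts, and Nup160 fell by 0.48 ± 0.05, a 1.40-fold lower ratio (adjusted p = 2.5e-08, limma). With position correction it was -0.41 ± 0.04 (adjusted p = 2.2e-04, limma), and in processed signals -0.45 ± 0.04 (adjusted p = 0.047, limma). The last of these lies close to the threshold. With every probe kept whatever its brightness it was 0.144, and without saturated probes 0.053, so Nup160 then no longer met the rule of 3 sets.

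Nup160 is also measured by 3 separate probes, which stand at rows 178, 77 and 420. Their sequences are shown because all 3 read lower. The first 30 of each probe's 60 bases, as the array file gives them, are in lower case throughout.
Nup160 probe 1: atttcagtggatttgttttggtccagaact
Nup160 probe 2: tgccaacagtcacaacattatactgtccca
Nup160 probe 3: ggtaactgaaagtcagatgcagtccatatt
With position correction their log2 ratios were -0.41 ± 0.04, -0.47 ± 0.01 and -0.25 ± 0.11. All 3 were called lower when every measured probe was tested by itself (adjusted p = 3.0e-04, 1.2e-04 and 0.0088, limma over 24737 probes), as 15.7% of all probes were. Probe 3 is dim, with 73 to 83 units in the LMO2 siRNA channel and 122 to 134 in the control channel.

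The other Y complex genes differed less. Nup107, which joins Nup133 at the stem of the Y, read -0.29 and -0.57 in mean signals (-0.43 ± 0.20, called lower) and -0.13 ± 0.12 with position correction, where it was not called. Nup133 went from -0.18 ± 0.01 (called lower, but not with a normexp offset of 10) to -0.11 ± 0.03 (not called). Nup85, in a short arm of the Y, went from 0.18 ± 0.01 (called higher, and -0.57 with median centring) to 0.07 ± 0.01 (not called). These 3 genes thus kept their sign and lost their call once position was corrected. The opposite held for the beta-propeller subunits Nup37 and Nup43, which were called lower only with the correction. Nup37 read -0.12 ± 0.03 and then -0.17 ± 0.02, and Nup43, whose probe is in row 469, read -0.05 ± 0.01 and then -0.28 ± 0.01. Both Nup43 probes were called lower with position correction, at -0.28 ± 0.01 and -0.32 ± 0.02. Nup98 is counted under the central channel only. Position-corrected ratios were below 0 for 5 of the 6 genes chosen by symbol and placed in the Y complex, beside 7582 of all 14316. Of these 6, 3 were called lower, beside 17.9% of all genes. Sec13, Seh1l and Ahctf1, Y complex genes under other names, read -0.09, 0.01 and -0.10 with position correction. They were not called with or without it.

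The inner ring, which holds the scaffold to the membrane and anchors the channel nucleoporins, had no common direction. Nup35, a membrane-binding subunit, read -0.41 and -0.40, a mean of -0.40 ± 0.01 that was called lower (adjusted p = 4.8e-07, limma). With position correction it stayed at -0.33 ± 0.02 (adjusted p = 7.9e-04, limma), and in processed signals it was -0.34 with an adjusted p of 0.060 in limma. Nup35 has 1 probe, so no other sequence on the array can be set beside it.

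Nup93, a linker of the ring, is printed near the edge at row 66 and showed how far position reached. Its log2 ratio was -0.36 ± 0.07 in mean signals, called lower, and -0.08 ± 0.00 with position correction. Nup155 was called neither way by its brightest probe (0.10 ± 0.12, then 0.09 ± 0.15). Its other probes were called lower in mean signals (-0.22 ± 0.13 and -0.25 ± 0.18). With position correction they read -0.09 ± 0.14 and -0.08 ± 0.15 and were not called. Nup188 was called higher in mean signals only (0.20 ± 0.07, then 0.03 ± 0.07, and -0.13 with median centring).

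Nup205, a large ring subunit, was the gene on which the arrays disagreed most. It read 1.27 on replicate 1 and -0.38 on replicate 2, so the mean of 0.44 ± 1.17 describes neither array. The control channel read 121 units on replicate 1 and 380 on replicate 2, while the LMO2 siRNA channel read 197 and 171. Limma, whose variance rests here on 28.1 prior and 1 residual degree of freedom, called Nup205 higher in mean signals (adjusted p = 0.023), although replicate 2 alone gave the opposite sign. With position correction it was not called (0.40 ± 1.14, adjusted p = 0.27, limma). A second Nup205 probe read 0.11 ± 0.02 and, corrected, -0.09 ± 0.05.

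Nucleoporins of the central channel carry phenylalanine-glycine repeats that transport receptors bind. Nup54 was called lower with position correction (-0.31 ± 0.06) and neither way without it (-0.06 ± 0.05), in row 456. Of its 3 probes, 2 were called lower after correction, and the other read -0.13 ± 0.02. Nup62 (-0.02 ± 0.14, then -0.10 ± 0.12) and Nup98 (0.12 ± 0.26, then -0.11 ± 0.26) were not called in either. Nup210, a membrane protein of the pore, was not called (0.04 ± 0.12, then -0.13 ± 0.10).

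The cytoplasmic face, where exported complexes are taken apart, carries Nup214 and its partner Nup88. Genes of this face under other names are given further below, and some of them were called lower. Nup214 read 0.43 and 0.32, and was called higher at 0.38 ± 0.08 and, with position correction, at 0.19 ± 0.08, but was -0.32 with median centring. Its second probe is dim, at 73 to 86 units with LMO2 siRNA, and was called lower after correction (-0.20 ± 0.03). After correction, Nup214 alone among the 28 genes with several measured probes had probes called in opposite directions. Nup88 was called higher in mean signals at 0.20 ± 0.01 (-0.54 with median centring) and read 0.01 ± 0.02 with position correction, in row 515.

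On the nuclear side, the basket is formed by Tpr filaments and Nup153, with the mobile Nup50 that helps release imported cargo. Nup50 read -0.15 and -0.22, was called lower at -0.18 ± 0.05, and remained so with position correction at -0.21 ± 0.04 (adjusted p = 0.010, limma), but was not called in mean signals with a normexp offset of 10 (-0.16, adjusted p = 0.055, limma). All 3 of its probes were called lower in both sets of values, between -0.21 and -0.18 after correction. Nup153 was called higher in mean signals only (0.20 ± 0.03, then 0.10 ± 0.03, and -0.48 with median centring).

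Tpr had probes that disagreed by 0.58 on the log2 scale after correction, the widest gap among the 28 genes with several measured probes. The brighter probe, at 8585 to 9758 units with LMO2 siRNA, read 0.08 ± 0.09 and, corrected, -0.08 ± 0.08. The other, at 3499 to 3661 units, read 0.71 ± 0.16 and 0.50 ± 0.17, and was called higher in both (adjusted p = 2.8e-04 after correction, limma over probes). The sequences are shown because they carry the same RefSeq record and gave different ratios.
Tpr probe 1: atgtgaataagattgacgaatctgttttaa
Tpr probe 2: tcattgactccacagaggctatagaagcaa

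**Figure D3:**
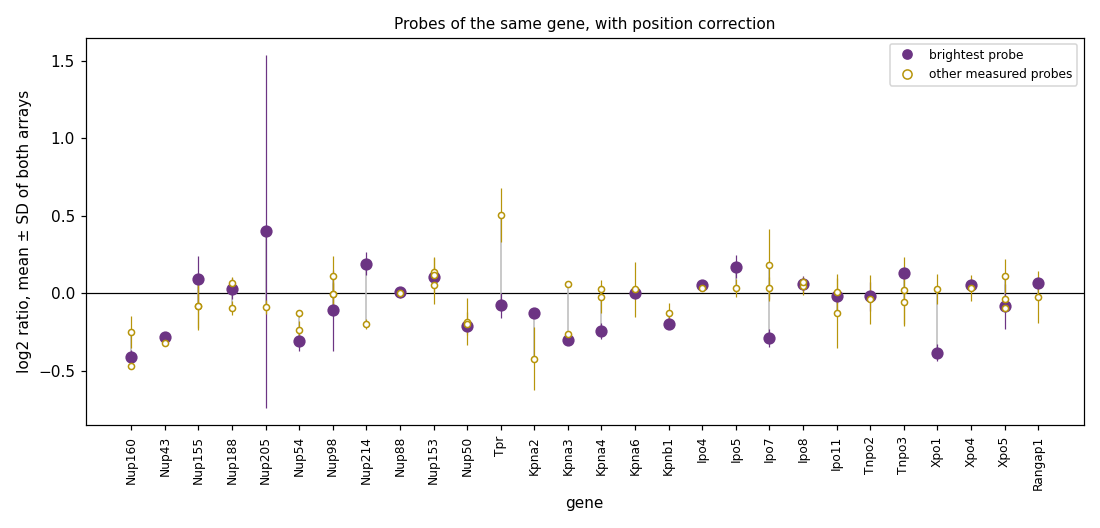
Position-corrected log2 ratio (vertical axis, mean ± SD of both arrays) of every measured probe of the 28 genes that have several, with the brightest probe filled and the others open. The 3 Nup160 probes lie between -0.47 and -0.25, whereas the Tpr probes lie at -0.08 and 0.50 and the Xpo1 probes at -0.38 and 0.03.

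Exportins had the largest ratios in either direction among the transport receptors in mean signals. Xpo1, also known as CRM1, exports proteins with leucine-rich signals. It read -0.54 and -0.48, with 1412 and 1299 units in the LMO2 siRNA channel and 3805 and 3304 in the control channel. The mean of -0.51 ± 0.04 was called lower (adjusted p = 6.9e-09, limma), as was -0.38 ± 0.05 with position correction (adjusted p = 3.5e-04, limma). In processed signals the ratio was -0.41 and the adjusted p 0.051 in limma, just outside the threshold. A second probe, matched to Xpo1 by the file's symbol through a cDNA clone record and not a RefSeq transcript, read 0.03 ± 0.10 with position correction and was dim, with 77.6 to 89.4 units in the control channel.
Xpo1 probe 1: gcaagatcatgtgcatatcatcccattgta
Xpo1 probe 2: ggtcagtggagttatattatttgcagtaga
The sequences are shown because only the bright probe read lower.

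Xpo7, an exportin known for its role in nuclear condensation of maturing erythroblasts, lay in the opposite direction. It read 0.40 and 0.41, with 1497 and 1451 units with LMO2 siRNA against 2068 and 1952 with control siRNA. The mean of 0.40 ± 0.01 was called higher (adjusted p = 5.0e-07, limma), and -0.21 resulted from median centring. With position correction it was 0.23 ± 0.02 (adjusted p = 0.0060, limma) and in processed signals 0.23 (adjusted p = 0.092, limma). Xpo7 rests on 1 measured probe, since its other probe did not pass the filter. Xpo4, Xpo5, which exports microRNA precursors, and Xpo6, which exports actin, were not called in any set of values (-0.10 ± 0.05, -0.03 ± 0.16 and 0.04 ± 0.17 in mean signals).

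Importin alpha adaptors recognise classical nuclear localisation signals and pass their cargo to importin beta. Kpna1 read 0.36 and 0.41 (0.38 ± 0.04, called higher, but -0.19 with median centring) and 0.23 ± 0.06 with position correction, still called higher. Kpna3 read -0.21 and -0.18 (-0.19 ± 0.02, called lower) and -0.30 ± 0.02 with position correction, still called lower. Of its 3 probes 2 were called lower after correction and the other read 0.06 ± 0.00. That other probe alone carries a RefSeq record, and the called probes were matched by the file's symbol. Kpna4 was called lower with position correction only (-0.10 ± 0.04, then -0.24 ± 0.05), and Kpna6 lay at 0.00 in both. The other Kpna4 probes read -0.02 ± 0.11 and 0.03 ± 0.03 with position correction and were not called there.

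Kpna2, the adaptor most abundant in dividing cells, depended on the probe. Its brighter probe read 0.10 ± 0.04 and, corrected, -0.13 ± 0.03, and was not called. The dimmer probe, at 3661 to 4764 units with LMO2 siRNA and 9731 to 10598 with control siRNA, read -0.35 ± 0.21 and -0.42 ± 0.20. It was called lower in both (adjusted p = 0.0012 after correction, limma over probes). These probes carry the same RefSeq record, and the sequences are given because the choice of the brightest probe decides whether Kpna2 counts as called.
Kpna2 probe 1: aagttcaggatggagctcctgggaccttta
Kpna2 probe 2: atcgatgcaggagcacttgcagtctttccc

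Of the 11 import receptors, 2 were called higher and 4 lower in mean signals, and 1 higher and 3 lower with position correction. The shares over all genes were 24.5% and 27.4%, then 20.3% and 17.9%. Kpnb1, which encodes importin beta 1, the receptor shared by all alpha adaptors, read -0.05 ± 0.02 and then -0.20 ± 0.01, called lower with the correction only (adjusted p = 0.012, limma). A second Kpnb1 probe was not called in either set (0.04 ± 0.04, then -0.13 ± 0.06). Ipo7, an importer of ribosomal proteins and histone H1, was called lower in both (-0.22 ± 0.07, then -0.29 ± 0.06). The called probe was matched to Ipo7 by the file's symbol through a cDNA clone record and not a RefSeq transcript. The other Ipo7 probes, which carry a RefSeq record, read 0.18 ± 0.23 and 0.03 ± 0.07 with correction and were not called. The mean of all Ipo7 probes in mean signals was not called either (-0.07). Ipo9 was also called lower in both (-0.27 ± 0.13, then -0.20 ± 0.15). Ipo5 was called higher in both (0.34 ± 0.06, then 0.17 ± 0.07) and was -0.29 with median centring. A second Ipo5 probe was not called in either set (0.12 ± 0.04, then 0.03 ± 0.06).

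Other import receptors lost their calls with position. Ipo4, a histone importer printed in row 44, went from -0.27 ± 0.04, called lower, to 0.05 ± 0.01, the only called gene of the module that changed sign with the correction. Ipo11 went from -0.21 ± 0.08, called lower, to -0.02 ± 0.05. Tnpo3, which imports splicing factors, went from 0.27 ± 0.01, called higher (-0.41 with median centring), to 0.13 ± 0.01. Ipo8, Ipo13, Tnpo1 and Tnpo2 were not called in any of the 3 sets and lay between 0.02 and 0.12 in mean signals.

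The Ran cycle supplies the gradient that gives transport its direction. Ran itself gave saturated control signals on each array, at 65257 and 65258 units against 50427 and 41650 with LMO2 siRNA. A control signal cut off at the top of the scale raises the ratio before normalization. No fold is therefore given, and the call of Ran as higher cannot be read as a direction. Rangap1, which activates GTP hydrolysis by Ran in the cytoplasm, read 0.18 ± 0.02, called higher (-0.49 with median centring), and 0.06 ± 0.01 with correction, not called. Its second probe, in row 25, read -0.33 ± 0.24, called lower, and, corrected, -0.02 ± 0.17, not called, so in mean signals its probes were called in opposite directions. Rcc1, the chromatin-bound exchange factor that loads Ran with GTP, read -0.22 ± 0.10, called lower, and -0.10 ± 0.09 with correction, not called. Ranbp1 was not called (0.00 ± 0.20, then -0.04 ± 0.22).

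**Figure D4:**
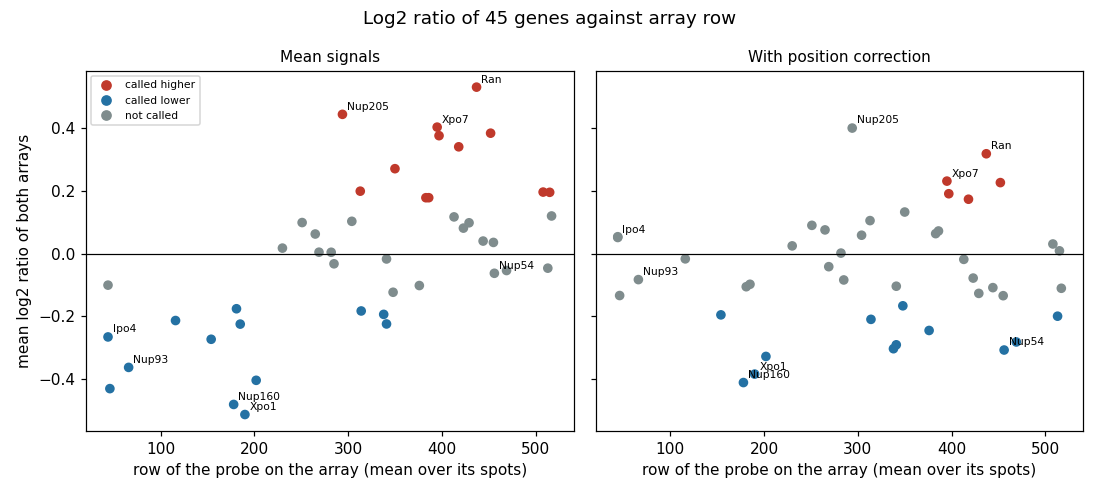
Mean log2 ratio (LMO2 siRNA over control siRNA) of both arrays for each of the 45 genes against the row of its probe on the array, from mean signals (left) and with position correction (right), coloured by call. The correlation with row is 0.64 on the left and 0.11 on the right, and Ipo4 moves from -0.27 to 0.05 while Nup160 stays low, at -0.48 and -0.41.

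Probes of the same gene did not always agree in the module. How this compares with the 5191 genes of the array that have several measured probes was not tested. Of the 90 measured probes tested by themselves, 12 were called higher and 26 lower in mean signals, beside 21.6% and 24.4% of all probes, and 6 and 21 with position correction, beside 17% and 15.7%. Among the 28 genes with several measured probes, the probes differed in sign for 16 in mean signals and 14 with position correction. These counts include ratios near 0. After correction, 3 genes had every probe called lower (Nup160, Nup43 and Nup50) and 0 had every probe called higher. In 7 genes some probes were called lower and none higher, in 2 some were called higher and none lower, and in 15 no probe was called. The other 17 genes rest on 1 measured probe.

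Related genes that the symbols do not catch were read from lists, to be set against 24.5% higher and 27.4% lower of all genes in mean signals and 20.3% and 17.9% with position correction. Of 11 measured pore proteins under other names, 4 were called lower and 2 higher in mean signals, and as many with position correction. Pom121, a membrane anchor of the pore, read -0.55 ± 0.14 and then -0.23, and Gle1, a cofactor of mRNA release at the pore, -0.46 ± 0.00 and then -0.31. Ranbp2 and Nupl2, which like Gle1 belong to the cytoplasmic face, were also called lower in both sets. They read -0.37 ± 0.01, then -0.20, and -0.34 ± 0.07, then -0.15. Rae1 was called higher in both (0.43 ± 0.01, then 0.24). Aaas read 1.85 on replicate 1 and 0.08 on replicate 2, so its mean of 0.97 ± 1.25 rests on 1 array. Limma called 0 of the 11 in processed signals, where 4 were lower and 1 higher at an unadjusted p under 0.05.

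Of 13 receptors and Ran regulators under other names, 6 were called lower and 3 higher in mean signals, and 6 and 2 with position correction. Nutf2, which encodes the carrier that returns Ran to the nucleus, fell by 0.77 ± 0.08 (adjusted p = 1.8e-12, limma) and was called lower in all 3 sets, at -0.48 with position correction and -0.46 in processed signals. Snupn, the adaptor for import of spliceosomal particles, read -0.52 ± 0.01 and then -0.27. Nxf1, the main mRNA export receptor, read -0.50 ± 0.14 and then -0.24. Both were called lower in those sets and not in processed signals.

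Of 18 mRNA export factors, 4 were called lower and 4 higher in mean signals and 5 and 1 with position correction. The largest were Zc3h11a at 0.49 ± 0.03, then 0.25, Ddx19a at -0.41 ± 0.01, then -0.19, and Mcm3ap at -0.29 ± 0.13, then -0.33. In the proliferation list, 13 of 15 genes were called lower in mean signals and 14 with position correction, and 5 in all 3 sets, with 0 called higher by limma (also 0 at an unadjusted p under 0.05). Their median was -0.47, then -0.41, against 0.00 and -0.08 for the 45 pore and transport genes. Ccna2 read -0.71 ± 0.07, then -0.40, and Mcm7 -0.68 ± 0.09, then -0.42, and neither was called in processed signals. Plk1, which fell in all 3 sets, read -0.70 ± 0.06, then -0.44. With position correction Mcm4 (-0.55) and Mcm5 (-0.51) were the lowest of the list. The part of cell division in the pore and transport values was not tested.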

How the data were processed

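Agilent Feature Extraction 9.1.3.1 quantified the spots, per the file headers, and intensity in the deposited files is the linear brightness of a spot in either dye. The deposited processed signals were background-subtracted, detrended and dye-normalized by that software, per the file headers, which also record the position ratio used here. The deposited series table holds log10 values of red over green and matched the scanner files' log10 ratio within 0.005 for all 45018 spots. A genome build was not given in the sources used here.

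From the mean signals, background was corrected by the normexp method of limma 3.58.1 with an offset of 50 (R 4.3.3), arrays were normalized by loess in which the 1639 control spots had weight 0, and the ratio was taken as Cy3 (LMO2 siRNA) over Cy5. For position correction, corrected signals were first divided by the deposited position ratio. Of 41174 probes, 24844 were named by RefSeq accession (GRCm38.p6 table, names only), 9636 by the file and 6694 by neither. Probes with at least 1 channel well above background on both arrays were used (24737), and the brightest of them stands for its gene. lmFit and eBayes tested ratios against 0 (prior degrees of freedom 28.1, residual 1, prior 8.7 with position correction and 2.2 in processed signals), with Benjamini-Hochberg adjustment at 0.05. A gene was said to rise or fall if called alike in mean, position-corrected and processed signals and not saturated. The precision of every value is limited by the number of arrays. The code was tested on simulated data.

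The 45 genes, the other lists and the tests were chosen with earlier results of these data known. Named genes are Lmo2, genes called in all 3 sets, core transport genes, genes whose probes disagree or saturate, and the 3 largest absolute ratios of each related list; the remaining genes of the module are accounted for as well. Alternatives covered background, position, offset, normalization, filters, probes, flags, saturation, prior, a 1.5-fold threshold, the series table and single arrays. Testing each probe, and the pairing of mean and position-corrected calls, were added after seeing the data.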

Additional observations from a re-analysis of the deposited data

How the results depend on the processing

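The calls depended strongly on the processing. Against 25 of the 45 genes called in mean signals (12 higher, 13 lower), processed signals and the series table each gave 1 (0 and 1), median centring 41 (0 and 41), a 1.5-fold threshold 0 (0 and 0), and calls alike with mean and position-corrected signals 12 (5 and 7), and position correction alone 5 higher. Genes called in all 3 sets numbered 1, and were 0 without a filter, 0 without saturated probes, 0 at a 1.5-fold threshold, 5 with both channels above background and 11 with an intensity-trend prior. Over all genes, 7432 calls (3509 higher, 3923 lower) became 1462 (974, 488) in processed signals, 1323 (898, 425) in the series table and 337 (290, 47) at 1.5-fold, with 2568 lower under position correction and 425 higher and 9238 lower under median centring. The related lists had 36 calls, against 6 in processed signals, 4 in the series table and 0 at 1.5-fold. Median centring turned the sign of 22 genes: Ipo13 -0.53, Ipo5 -0.29, Ipo8 -0.50, Kpna1 -0.19, Kpna2 -0.66, Kpna6 -0.66, Nup153 -0.48, Nup155 -0.56, Nup188 -0.13, Nup210 -0.60, Nup214 -0.32, Nup85 -0.57, Nup88 -0.54, Nup98 -0.46, Ranbp1 -0.73, Rangap1 -0.49, Tnpo1 -0.67, Tnpo2 -0.45, Tnpo3 -0.41, Tpr -0.65, Xpo6 -0.44 and Xpo7 -0.21. Ran, saturated and given no ratio, was left out of that count. Ipo4 turned to 0.051 with position correction, 0.037 in processed signals and 0.037 in the series table, and Rangap1 to -0.075 as the mean of its probes. Each array alone left the sign of every called gene except Nup205, at 1.27 on replicate 1 and -0.38 on replicate 2. The cause was not tested. For position correction, the repeated spots show the drift, but on the same arrays from which the position ratio was recorded. No paired analysis was possible because no other group of arrays shares the replicate numbers, beyond the pairing of both arms that each array's ratio already makes. A normexp offset of 10 ended the calls of Nup50 and Nup133. Dim probes, such as the second probes of Xpo1 and Nup214, lie close to background, which limits what they can show.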
